A study of Mus musculus with 48 samples.

Results

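The proteasome subunit genes were taken as the protein-coding mouse genes whose symbols begin with Psma, Psmb, Psmc or Psmd and a number, together with Psme1 to Psme4, pseudogenes excluded. They came to 44 of the 47643 genes in the deposited files. The rule used symbols and no measured value. Of the 44 genes, 43 encode proteasome subunits, their assembly chaperones or activators, and Psmc3ip was caught by its symbol alone, since it encodes a recombination factor. The genes fell into the alpha ring (8), the structural beta genes (4), the standard catalytic beta genes (3), the immune and thymic beta genes (4), the cap ATPases (6), the cap base scaffolds and ubiquitin receptor (3), the cap lid (8), the cap assembly chaperones (3) and the other activators (4).

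Ribosome-bound RNA was purified from the dorsal hippocampus of Tg(Aldh1l1-eGFP/Rpl10a) JD130Htz mice (Aldh1l1:L10a-eGFP) with an antibody to GFP. In this line the promoter of Aldh1l1, an astrocyte gene, drives a ribosomal protein fused to a fluorescent protein, so the pulldown is aimed at ribosomes of astrocytes; all libraries came from carriers of the transgene, the animals' age is not given in the sources used here, and no treatment is named. Animals C1, C2 and C3 each gave a library of whole astrocytes (Astro) and a library of perisynaptic astrocytic processes (PAP), thin astrocyte extensions that sit beside synapses. Each library was sequenced as 8 technical replicates, 48 samples in all, which were summed here, so n = 3 animals per compartment.

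The proteasome is the large protease that degrades ubiquitin-tagged proteins. Its core is a barrel of outer alpha rings and inner beta rings, in which the beta1, beta2 and beta5 subunits cut peptide bonds, and interferon-induced counterparts can take their places to form the immunoproteasome. The cap unfolds substrates with a ring of ATPases and removes ubiquitin at the lid, whereas the PA28 and PA200 activators open the barrel without ubiquitin. In astrocytes, as in other cells, the subunits are made in step under the transcription factor NRF1 (Nfe2l1), which works with small MAF partners.

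The shared control of proteasome genes is known to run through an antioxidant response element. Promoter sequences are shown for 4 genes: the catalytic Psmb5 and Psmb6, the cap ATPase gene Psmc6 and the activator gene Psme2. They do not stand for the whole set. Psmb5, Psmb6 and Psmc6 are among the 6 genes that held the core letters of that element. Psma5, Psmb7, Psmd7 and Psme1 are not shown. RefSeq (GRCm38.p6) gave promoters for 37 of the 44 genes, 40 promoters in all, each covering 250 bases before to 50 bases after a transcription start. The core letters TGACNNNGC, searched on both strands, occurred in 15% of these promoters and in 12.4% of all 32851 promoters of the same length. The letters CCAAT, also on both strands, occurred in 37.5% and 37.4%. Neither share stood far from its background. Psmb5, Psmb6, Psmc6, Psmd9, Psmd12 and Psme4 held the antioxidant letters. The stretches below run 5′ to 3′ from 250 bases before the RefSeq start and stop before that start or, where it comes first, before the first base that GENCODE M21 places in an exon, with a match to either set of letters in capitals. They lie at chr14:45329574-45329787, plus strand (Psmc6), chr14:54618023-54618245, minus strand (Psmb5), chr11:70525107-70525356, plus strand (Psmb6) and chr14:55591114-55591351, minus strand (Psme2).
Psmc6: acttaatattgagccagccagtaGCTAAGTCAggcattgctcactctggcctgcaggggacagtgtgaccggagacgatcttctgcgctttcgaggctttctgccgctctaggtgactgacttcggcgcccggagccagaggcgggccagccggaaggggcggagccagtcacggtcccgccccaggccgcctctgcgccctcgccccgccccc
Psmb5: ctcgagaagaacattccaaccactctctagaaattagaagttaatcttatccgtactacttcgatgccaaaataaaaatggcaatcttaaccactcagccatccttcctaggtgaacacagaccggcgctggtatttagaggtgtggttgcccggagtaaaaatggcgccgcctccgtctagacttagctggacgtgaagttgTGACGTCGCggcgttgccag
Psmb6: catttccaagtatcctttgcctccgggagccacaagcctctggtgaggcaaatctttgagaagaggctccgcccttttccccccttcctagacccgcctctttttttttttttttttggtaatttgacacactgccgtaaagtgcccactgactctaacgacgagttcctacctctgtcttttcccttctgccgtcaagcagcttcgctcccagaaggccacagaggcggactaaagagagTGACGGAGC
Psme2: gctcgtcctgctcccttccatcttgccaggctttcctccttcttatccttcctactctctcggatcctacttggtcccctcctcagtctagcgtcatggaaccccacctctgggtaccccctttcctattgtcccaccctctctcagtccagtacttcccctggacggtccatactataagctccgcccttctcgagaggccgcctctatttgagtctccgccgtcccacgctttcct
The capitals in Psmb5 and Psmb6, the standard beta5 and beta1 genes, lie close to the start, at first bases 47 and 9 bases before it, whereas those in Psmc6, a cap ATPase gene, begin 227 bases before it. The stretch of Psme2, which encodes PA28 beta, holds neither set of letters. A match is a description of letters and shows no binding.

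The Astro libraries held 18707844 to 20293538 counts and the PAP libraries 1829962 to 2980984, a median ratio of 10.6. Astrocyte markers took 2.55% ± 0.308 (SD, n = 3) of Astro counts and 0.902% ± 0.533 of PAP counts, and none of the 10 was at 0. Microglia markers took 0.00365% ± 0.00122 of Astro and 0.00289% ± 0.000622 of PAP counts. Of these 8 markers, 6, 7 and 6 were at 0 in the shallower PAP libraries, beside 1, 0 and 1 in Astro. Their PAP counts came from C1qa (0, 0 and 50), C1qb (51, 58 and 0) and Csf1r (10, 0 and 15). B-lineage markers took 0.00493% ± 0.00117 of Astro counts and 0.424% ± 0.175 of PAP counts (0.619%, 0.376% and 0.278%). Jchain and Igkc made up most of that, while Cd79a and Ighm were at 0 in all 3 PAP libraries. Neuron markers took 0.0851% ± 0.028 of Astro and 0.0838% ± 0.0467 of PAP counts, but single markers went opposite ways. After scaling, every PAP library lay above every Astro library for Syt1 and Camk2a and below for Snap25 and Tubb3. For the other 4 neuron markers the groups overlapped. Over all tested genes, 10.9% lay above and 35.1% below in this way. Oligodendrocyte markers took 0.0779% ± 0.00715 and 0.0766% ± 0.0237. In bulk libraries, fewer cells of a type and less RNA per cell cannot be told apart.

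Levels of single genes are given as CPM, the gene's counts relative to the library's total after adjustment by trimmed mean of M-values factors. The summed levels of the proteasome genes were close to each other in the compartments. The 44 genes took 0.576%, 0.484% and 0.575% of the counts in Astro and 0.726%, 0.629% and 0.568% in PAP, which gave 0.545% ± 0.0529 and 0.641% ± 0.0796 (SD, n = 3). The PAP share was the higher one in animals 1 and 2 and the groups overlapped; the difference of 0.0966 percentage points was 0.0542 without the PAP library of animal 1. With 3 libraries against 3, an exact 2-sided permutation test cannot give a p below 0.1. Among the genes, 43 entered the test and Psmb11, the thymic beta5 gene, did not, with 6 counts in Astro animal 2 and 0 elsewhere. All 3 PAP libraries held over 3 counts of 39 of the 44 genes.

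Between PAP and Astro, edgeR's quasi-likelihood test with Benjamini-Hochberg adjustment called 5 of the 43 tested genes at an adjusted p under 0.05. The PA28 genes Psme1 and Psme2, the alpha ring gene Psma5 and the cap ATPase gene Psmc6 rose in PAP, and the lid gene Psmd7 fell. Across all 14618 tested genes, 5.92% were called higher and 15.4% lower in PAP, beside 4 higher and 1 lower among the 43. Among genes with an Astro median of at least 20 CPM, a level chosen after the values were seen, 358 of 7339 were called higher and 656 lower (8.94%), beside 4 and 1 of 39 proteasome genes. At an unadjusted p under 0.05 there were 12 of 43, beside 30.9% of all genes. The log2 fold change was positive in 22 and negative in 21 genes, with a median of 0.003 beside −0.527 over all tested genes. DESeq2's Wald test, run as an alternative, called 6 higher and 7 lower, beside 11.5% and 23.6% of all genes. Beside the 5 genes above, those were Psmb4 and Psmd14 (higher) and Psma6, Psma8, Psmb2, Psmd3, Psmd8 and Psmd9 (lower). In 8 of the 43 genes every PAP library lay above every Astro library, and in 13 below; over all genes these shares were 10.9% and 35.1%.

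These calls depended on the design of the fit. With the animal as a replicate block, edgeR called no proteasome gene in either direction, at an unadjusted p under 0.05 there were 7, and the smallest Benjamini-Hochberg adjusted p among them was 0.204; over all genes, 0.876% were then called higher and 0.0342% lower. DESeq2 with the same block called 6 higher and 5 lower, beside 9.84% and 36.9% of all genes. No proteasome gene was called when any 1 Astro library was left out; the adjusted p of the 5 genes was then 0.0702 to 0.173. Scaling by library size alone moved the median of all genes by 0.15 on the log2 scale. Relative to the median of all genes, the log2 fold changes were 2.55 for Psme1, 2.51 for Psme2, 2.23 for Psma5, 2.04 for Psmc6 and −2.27 for Psmd7.

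**Figure D1:**
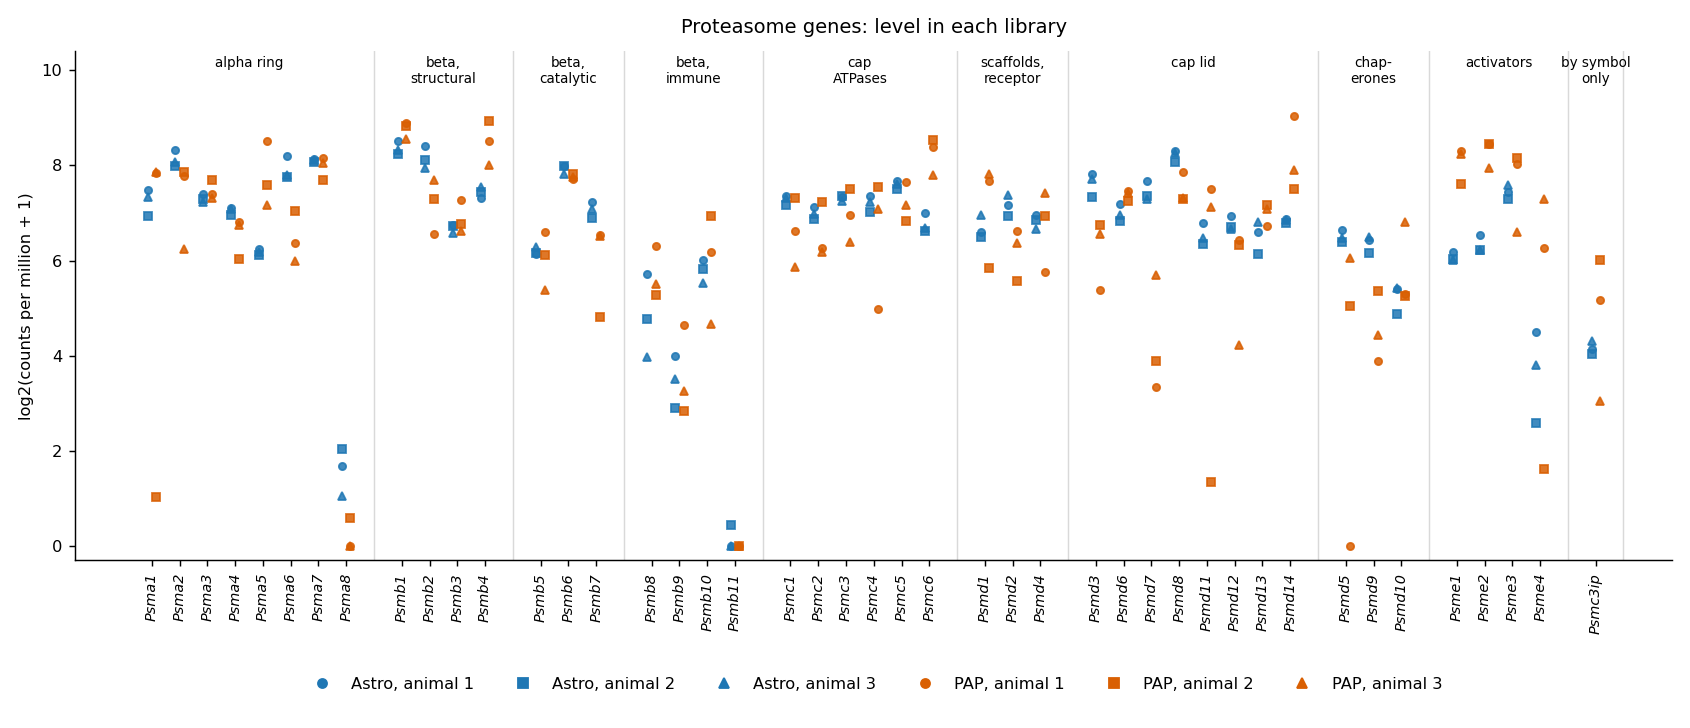
Level of each of the 44 genes in each of the 6 libraries, as log2 of CPM plus 1 on the vertical axis, with genes on the horizontal axis grouped by role. Blue points are Astro, orange points are PAP and the marker shape gives the animal. Astro points of most genes lie close together, with Psmb8 and Psme4 among the exceptions, and Psma1, Psmd5, Psmd11 and Psme4 each have 1 PAP point far below the others.

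**Figure D2:**
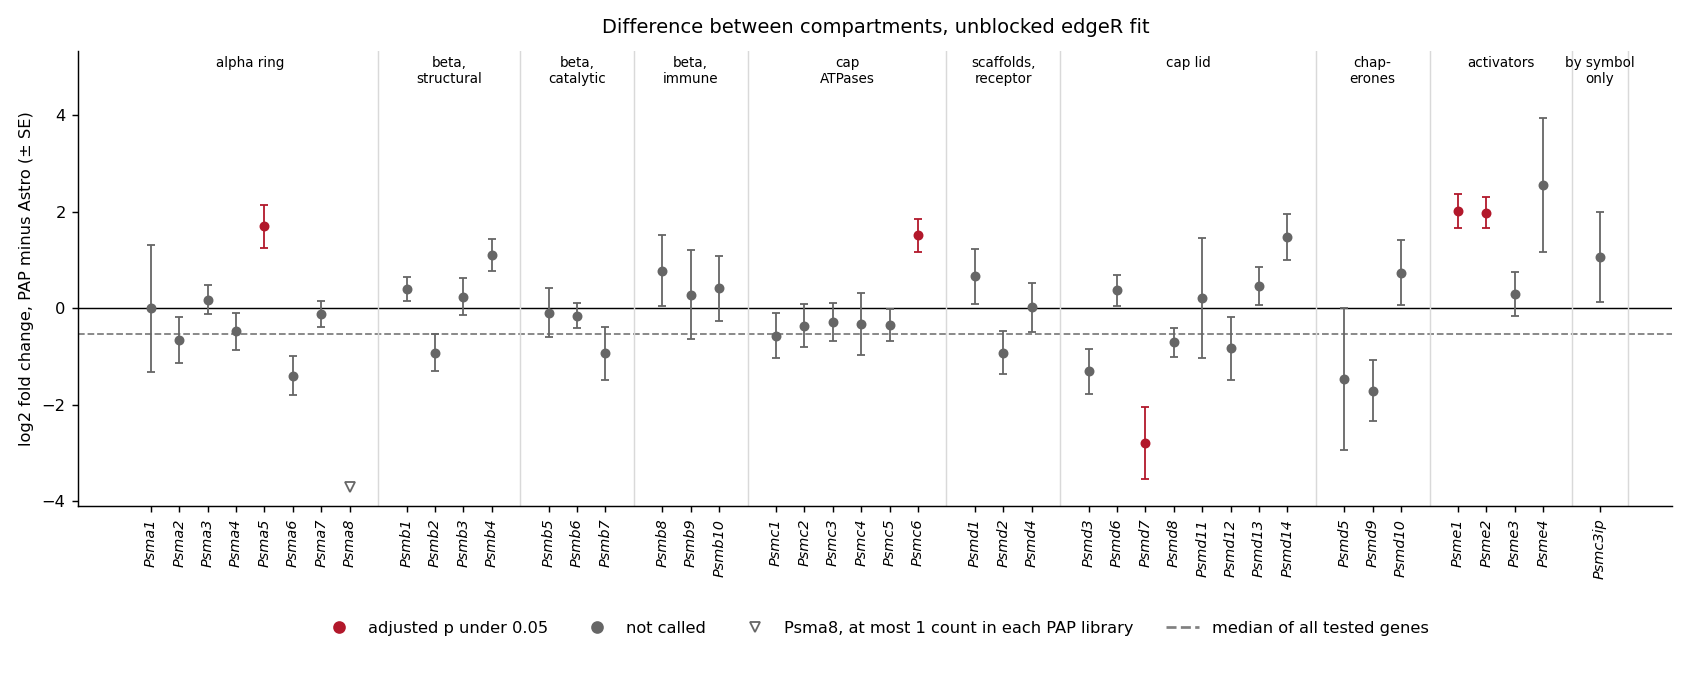
Log2 fold change of PAP minus Astro with its standard error for the 43 tested genes, by role, from the fit without a block. Red marks the 5 called genes, and the dashed line is the median of all tested genes at −0.527. Psma8, with at most 1 count in each PAP library, is drawn without an error because its fitted value is no bound.

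Among the alpha genes, which form the outer rings and the gate of the barrel, Psma5 (alpha5, chr3:108256926-108279974) was the only one called by edgeR in the fit without a block. It stood at 74.7, 68.5 and 71.7 CPM in Astro and at 365, 193 and 143 CPM in PAP. Every PAP library was above every Astro library, with the PAP library of animal 1 the highest. The log2 fold change was 1.70 ± 0.45 (SE, edgeR adjusted p = 0.0392), and 1.59 ± 0.56 with the replicate block (adjusted p = 0.206). Over 18 alternative settings it stayed positive, with adjusted p from 0.000179 to 0.266; without the PAP library of animal 1 it was 1.19 (adjusted p = 0.0578).

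The other alpha genes were not called in that fit. Psma6 (alpha1) and Psma7 (alpha4) were chosen after their values were seen. Psma6 had 293, 214 and 221 CPM in Astro and 82.1, 131 and 63.1 CPM in PAP, so the groups were apart, but the edgeR adjusted p of its log2 fold change of −1.40 ± 0.40 was 0.0524. For Psma6 the edgeR adjusted p was 0.0466 and 0.0470 in technical replicates 1 to 4 and 5 to 8. With 1 library left out it ran from 0.0251 to 0.237, at equal depth it was 0.107 and with the replicate block 0.206. DESeq2 gave an adjusted p of 0.00248 and voom 0.345. Psma7 lay at 282, 270 and 276 CPM in Astro and 286, 207 and 266 CPM in PAP. Psma1 (alpha6), chosen after its values were seen, had 2 counts in PAP animal 2 against 444 and 700 in the other PAP libraries. Psma8, the alpha4 form of the testis, had 41, 53 and 21 counts in Astro and 0, 1 and 0 in PAP. Against a floor of 3 counts in each PAP library, Psma8 was at least 1.58-fold lower there, and it was not called by edgeR (adjusted p = 0.0624, and 0.0174 with DESeq2).

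None of the structural beta genes, which shape the inner rings without cutting, was called by edgeR in the fit without a block. Psmb4 (beta7) had 158, 172 and 185 CPM in Astro and 367, 486 and 256 CPM in PAP. All 3 PAP values exceeded all 3 Astro values, and the log2 fold change of 1.10 ± 0.33 had an edgeR adjusted p of 0.0584. Psmb4 was called in 6 of 18 alternatives, DESeq2 (adjusted p = 0.000957) and the fit without the PAP library of animal 3 (adjusted p = 0.0242) among them, and its adjusted p ran up to 0.310. Psmb2 (beta4) went the other way, at 337, 277 and 246 CPM in Astro and 92.9, 157 and 205 CPM in PAP, with −0.92 ± 0.38 (edgeR adjusted p = 0.161, and 0.0427 with DESeq2, the only 1 of 18 alternatives that called it). Psmb1 and Psmb3 had log2 fold changes of 0.40 and 0.24.

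The standard catalytic genes, which encode the cutting subunits, were not called either. Psmb6 (beta1, chr11:70525367-70527858) had 254, 252 and 224 CPM in Astro and 210, 224 and 217 CPM in PAP, and both groups lay in a narrow range. Its log2 fold change was −0.16 ± 0.26 (edgeR adjusted p = 0.756). Psmb5 (beta5, chr14:54614119-54618022) had 70.0, 70.9 and 77.5 CPM in Astro and 96.4, 68.6 and 41.0 CPM in PAP, so PAP lay on both sides of Astro, with −0.09 ± 0.51 (edgeR adjusted p = 0.941). Psmb7 (beta2, chr2:38588036-38644087) had 149, 118 and 135 CPM in Astro and 91.3, 27.3 and 90.2 CPM in PAP. PAP was below Astro in each library for Psmb7, with −0.94 ± 0.56 (edgeR adjusted p = 0.334). The miRNA gene Mir686 lies inside an exon of Psmb5 and held 404, 366 and 447 counts in Astro and 53, 34 and 23 in PAP. Psmb7 overlaps Nek6 on the opposite strand, and since the counting is not stated to use strand, reads of such pairs cannot be told apart.

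Their interferon-induced counterparts were detected in every library. Psmb8 (beta5i, chr17:34197721-34201454) had 52.0, 26.5 and 14.8 CPM in Astro and 78.1, 37.6 and 44.3 CPM in PAP. Psmb9 (beta1i, chr17:34181987-34187764) had 15, 6.46 and 10.4 CPM in Astro and 24.0, 6.19 and 8.59 CPM in PAP. Psmb10 (beta2i, chr8:105935735-105938444) had 63.4, 55.3 and 45.2 CPM in Astro and 71.4, 122 and 24.5 CPM in PAP. The compartments overlapped for all 3 genes. The log2 fold changes were 0.78 ± 0.73 for Psmb8, 0.28 ± 0.92 for Psmb9 and 0.41 ± 0.68 for Psmb10, with edgeR adjusted p-values of 0.572, 0.890 and 0.771. An antisense gene, Gm20496, lies over Psmb8 and held 361, 178 and 125 counts in Astro and 48, 12 and 47 in PAP, and Tap1 overlaps Psmb9.

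The share of the immune gene at each catalytic position was taken per exonic length. At beta5, Psmb8 made up 16.5%, 9.04% and 4.83% of the Psmb8 and Psmb5 level in Astro and 17.7%, 12.7% and 22.3% in PAP. At beta1, the share of Psmb9 was 2.94%, 1.29% and 2.33% in Astro and 5.51%, 1.39% and 1.99% in PAP. At beta2, the share of Psmb10 was 46.0%, 48.5% and 40.2% in Astro and 61.1%, 89.9% and 35.2% in PAP. Per length, beta2 had the highest immune share and beta1 the lowest in each of the 6 libraries. The length joins all annotated exons of a gene, and the order of beta2 and beta5 depended on it. By counts alone, beta5 exceeded beta2 in Astro animal 1 (42.6% against 29.8%). It also did so in PAP animal 1 (44.7% against 43.9%) and PAP animal 3 (51.9% against 21.3%). In the other libraries beta2 stayed the higher one. Over the 3 positions the share was 14.9% ± 3.02 in Astro and 21.8% ± 7.77 in PAP (SD, n = 3). It was 18.1%, 14.5% and 12.1% in Astro and 22.5%, 29.2% and 13.7% in PAP. PAP was the higher one in each animal, but the groups overlapped, and the difference of 6.91 percentage points was 3.21 without the PAP library of animal 2 and 11 without that of animal 3. The PAP share at beta2 in animal 2 rests on 236 counts of Psmb10 and 53 of Psmb7, and as a share of counts was 81.7% (95% Wilson interval 76.8 to 85.7%). Such intervals cover counting error only, since no molecular identifiers are named.

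**Figure D3:**
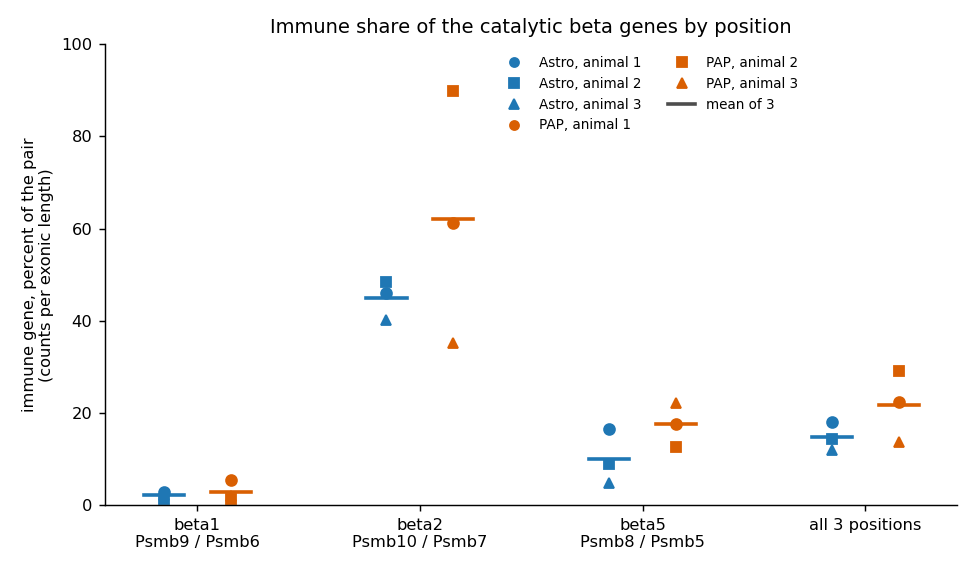
Immune gene as a percent of the immune and standard pair, per exonic length, at beta1, beta2, beta5 and over all 3 positions. Points are libraries, colours are compartments, shapes are animals and bars are means of 3. At beta2 the PAP points run from 35.2% to 89.9%, around the Astro points at 40.2% to 48.5%.

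In the cap, the ATPases form the ring that unfolds the substrate, and Psmc6 (Rpt4, chr14:45329788-45349705) was the 1 of 6 that rose. It had 127, 96.9 and 102 CPM in Astro and 333, 372 and 221 CPM in PAP. All PAP libraries were above all Astro libraries. The log2 fold change was 1.51 ± 0.34 (edgeR adjusted p = 0.0241), and 1.49 ± 0.47 with the replicate block (adjusted p = 0.206). Over the 18 alternatives it stayed positive, with adjusted p from 2.87e-06 to 0.207. Its 5 partners had log2 fold changes from −0.57 (Psmc1) to −0.29 (Psmc3), none called and each with overlapping groups. Psmc1 (Rpt2) had 164, 143 and 159 CPM in Astro and 97.5, 159 and 57.5 CPM in PAP (−0.57 ± 0.46, edgeR adjusted p = 0.496).

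The scaffold and receptor genes of the cap base were not called. Psmd1 (Rpn2), a large scaffold, had 95.7, 88.8 and 123 CPM in Astro and 204, 56.2 and 225 CPM in PAP, with PAP animal 2 below Astro and the others above. Its log2 fold change was 0.66 ± 0.57 (edgeR adjusted p = 0.534). Psmd2 (Rpn1), the other scaffold, had 142, 121 and 166 CPM in Astro and 97.5, 46.9 and 81.9 CPM in PAP (−0.92 ± 0.44, edgeR adjusted p = 0.221). The ubiquitin receptor gene Psmd4 (Rpn10) had a log2 fold change of 0.02 ± 0.51.

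In the lid, which removes ubiquitin, the partners Psmd7 and Psmd14 lay on opposite sides. Psmd7 (Rpn8, chr8:107580381-107588464), which pairs with the deubiquitinase, had 202, 162 and 156 CPM in Astro and 9.18, 13.9 and 51.2 CPM in PAP. These PAP values came from 18, 27 and 155 counts, and all lay below Astro. The log2 fold change was −2.80 ± 0.75, 6.96-fold lower (edgeR adjusted p = 0.0428), and −3.21 ± 0.90 with the replicate block (adjusted p = 0.206). It stayed negative over the 18 alternatives, with adjusted p from 6.37e-05 to 0.207, and was not called without the PAP library of animal 1 (−2.45, adjusted p = 0.0530) or of animal 2 (−2.57, adjusted p = 0.0748). Psmd14 (Rpn11, chr2:61711694-61800376), the deubiquitinase of the lid, had 117, 109 and 114 CPM in Astro and 529, 181 and 239 CPM in PAP. All PAP values of Psmd14 were above Astro, with 1.48 ± 0.47, and it missed the threshold (edgeR adjusted p = 0.0721) but passed in 3 of 18 alternatives, DESeq2 (adjusted p = 0.00252) and the fit without the PAP library of animal 2 (adjusted p = 0.0392) among them. Without the PAP library of animal 1 it was 0.85 (adjusted p = 0.0912). Psmd11 (Rpn6), chosen after its values were seen, had 355, 3 and 421 counts in PAP. 

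The cap assembly chaperones hold the ATPases before the ring closes and leave the finished particle. Psmd9 (p27) had 84.9, 70.8 and 88.7 CPM in Astro and 13.8, 40.2 and 20.5 CPM in PAP, with every PAP library below Astro (−1.71 ± 0.63, edgeR adjusted p = 0.114). Psmd9 was called without the PAP library of animal 2 (−2.31, adjusted p = 0.0279) and by DESeq2 (adjusted p = 0.00808, and 0.0258 with the block), and the adjusted p ran up to 0.383 over 18 alternatives. Psmd10 (gankyrin) had 41.1, 28.2 and 42.1 CPM in Astro and 38.3, 37.1 and 111 CPM in PAP (0.74 ± 0.68, edgeR adjusted p = 0.558). Psmd5 (S5b), chosen after its values were seen, had 0, 62 and 199 counts in PAP.

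The other activators included both PA28 genes, which encode the ring that interferon induces and that opens the barrel for peptides. Psme1 (PA28 alpha, chr14:55578123-55581529) had 71.9, 64.5 and 63.4 CPM in Astro and 314, 195 and 303 CPM in PAP. Psme2 (PA28 beta, chr14:55587441-55591113) had 92.2, 73.5 and 73.9 CPM in Astro and 351, 347 and 247 CPM in PAP. For both, the lowest PAP library was over every Astro library. The log2 fold change was 2.02 ± 0.35 for Psme1, 4.06-fold higher, and 1.98 ± 0.32 for Psme2, 3.94-fold higher (edgeR adjusted p = 0.0208 for each). With the replicate block these were 1.99 ± 0.51 (adjusted p = 0.206) and 1.97 ± 0.47 (adjusted p = 0.204). Over the 18 alternatives both stayed positive and 13 called each of them, with adjusted p from 2.76e-14 to 0.207 for Psme1 and from 4.87e-13 to 0.207 for Psme2.

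As a share of all counts in the 44 genes, Psme1 and Psme2 together made up 2.62%, 2.60% and 2.41% in Astro and 9.81%, 9.11% and 9.82% in PAP. The share was 2.54% ± 0.113 in Astro and 9.58% ± 0.407 in PAP (SD, n = 3), with no overlap. The 14 standard core genes made up 46.0% ± 1.04 and 42.7% ± 1.02, and the 17 cap genes 42.6% ± 0.892 and 38.1% ± 0.925. These are shares of a total that holds the PA28 genes. As a share of all counts, the core genes took 0.25% ± 0.0202 in Astro and 0.274% ± 0.0398 in PAP. The cap genes took 0.232% ± 0.0258 and 0.244% ± 0.0278, and the groups overlapped for both sets. Psme2b, a near copy of Psme2, held 33, 28 and 30 counts in Astro and 7, 11 and 18 in PAP. The B-lineage markers were also higher in PAP than in Astro, at 0.278% to 0.619% of counts, and their part in the PA28 values was not tested.

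The remaining activators were not called. Psme3 (PA28 gamma, the nuclear form) had 172, 155 and 192 CPM in Astro and 262, 283 and 95.8 CPM in PAP, with PAP animal 3 below Astro (0.30 ± 0.46, edgeR adjusted p = 0.745). Psme4 (PA200) had 21.6, 5.05 and 13 CPM in Astro and 75.5, 2.06 and 157 CPM in PAP. Its log2 fold change was 2.56 ± 1.39 (edgeR adjusted p = 0.288), and PAP animal 2 held 4 counts of it. Psme4 was at 3.07 without that library (adjusted p = 0.0444, its only call in 18 alternatives) and at 1.49 without the PAP library of animal 3 (adjusted p = 0.477). Psmc3ip, matched by symbol alone, had 16.7, 15.4 and 18.8 CPM in Astro and 35.2, 63.9 and 7.27 CPM in PAP (1.06 ± 0.94, edgeR adjusted p = 0.542).

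Since the standard core and cap subunits are built into particles in fixed numbers, the levels of their 31 genes were also compared per length. In Astro the highest was Psmb2, at a median of 230 CPM per kilobase, followed by Psma6 at 179 and Psmc5 at 139, and the lowest was Psmd1 at 13.2. In PAP, Psmb4 was highest at 188, followed by Psma5 at 146, and Psmd7 was lowest at 6.16. Psmc6 went from rank 27 of 31 in Astro to rank 7 in PAP, and Psmd7 from rank 11 to rank 31. Across the 31 genes, the log2 levels (plus a pseudocount of 0.5) of any pair of Astro libraries had a Pearson correlation of 0.98 to 0.99, any pair of PAP libraries 0.45 to 0.67, and an Astro with a PAP library 0.33 to 0.59. By ranks (Spearman) these were 0.96 to 0.97, 0.69 to 0.77 and 0.44 to 0.64. Psma1 and Psmd11, at 2 and 3 counts, are among the genes of PAP animal 2. These are correlations across genes, which are not independent replicates, and libraries of a compartment share depth. Between the first and last 4 technical replicates of the same library, the Pearson correlation of log2 CPM over the 31 genes was 0.978 to 0.994, in PAP as in Astro.

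**Figure D4:**
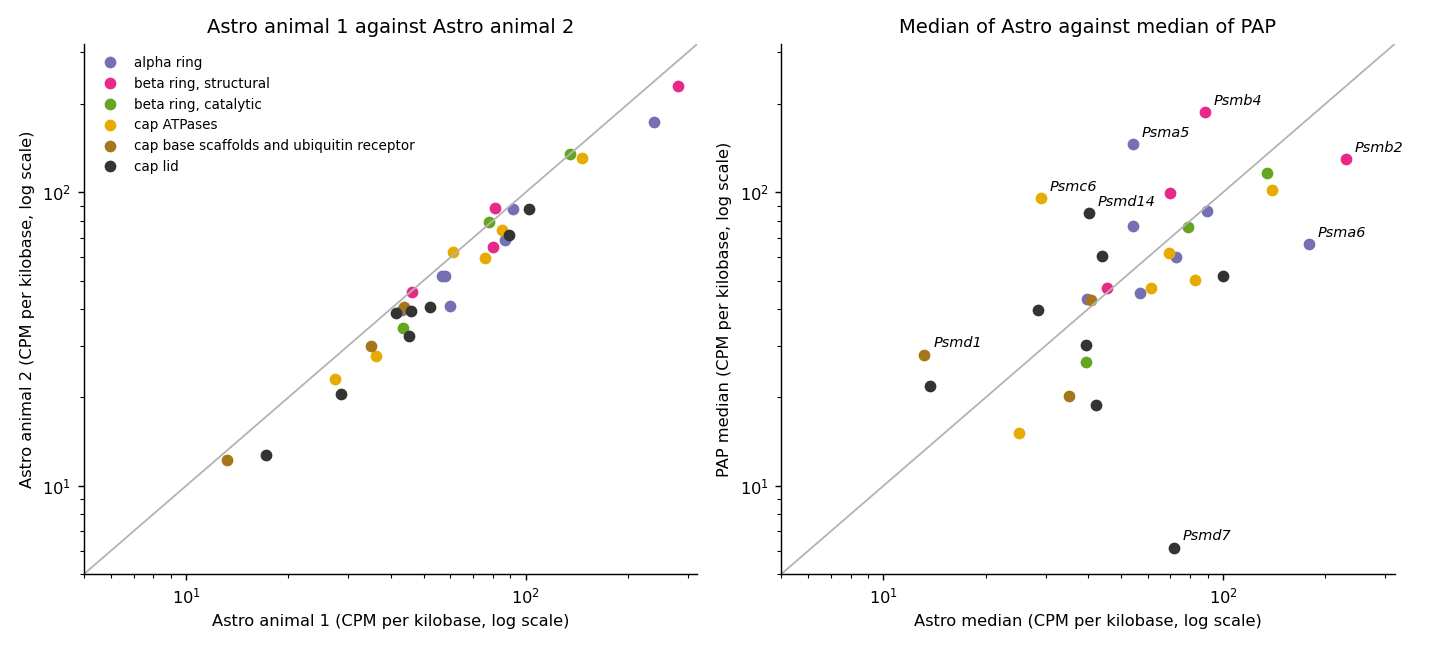
Levels of the 31 standard core and cap genes in CPM per kilobase on log axes, coloured by role, with the diagonal in grey. The left panel sets Astro animal 1 against Astro animal 2, and the right panel sets the Astro median against the PAP median. The points hug the diagonal on the left and scatter on the right, with Psmd7 at 71.6 in Astro and 6.16 in PAP.

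Spread between animals was smaller in these genes than across the transcriptome. The SD of log2 levels over the 3 PAP libraries had a median of 0.61 over the 43 tested genes and of 1.26 over all tested genes, beside 0.17 and 0.29 in Astro. At least 1 PAP library held 3 counts or fewer for 4 of the 43 genes (Psma1, Psma8, Psmd5 and Psmd11), 9.30%, and for 60.4% of all tested genes. Among genes with an Astro median of at least 20 CPM, this held for 3 of 39 (7.69%) and for 41.2% of all. Thinned to 1829962 counts per library, 42 of the 44 genes had over 3 counts in all 3 Astro libraries and 39 in all 3 PAP libraries.

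The regulators of proteasome genes were 11 listed genes, of which 10 were tested. In edgeR's fit without a block 2 rose and 1 fell, beside 5.92% higher and 15.4% lower of all tested genes. Mafg, a small MAF partner of NRF1 and NRF2, had 57.5, 40.1 and 79.4 CPM in Astro and 3482, 2268 and 2106 CPM in PAP. The groups were far apart, with a log2 fold change of 5.47 ± 0.40, 44.3-fold higher (edgeR adjusted p = 0.00211). Mafg was called with the replicate block as well (5.49 ± 0.44, adjusted p = 0.0151). The B-lineage markers Jchain (log2 fold change 6.67 ± 0.53) and Igkc (6.33 ± 0.39) also rose in PAP, while Ighm and Cd79a were at 0 there. The part of B-lineage RNA in the Mafg values was not tested. Ddi2, the protease that activates NRF1, had 18.7, 12.1 and 21.2 CPM in Astro and 173, 78.3 and 76.3 CPM in PAP. Ddi2 rose in PAP in the fit without a block (2.65 ± 0.62, edgeR adjusted p = 0.0265; blocked fit, adjusted p = 0.206). Ngly1, which removes sugars from NRF1, had 1395, 1012 and 1670 counts in Astro and 1, 0 and 0 in PAP. Against a floor of 3 counts in each PAP library, Ngly1 was at least 54.3-fold lower there, with an edgeR adjusted p of 0.0208 (blocked fit, adjusted p = 0.160). Nfe2l1 itself had 79.9, 153 and 82.0 CPM in Astro and 76.0, 175 and 183 CPM in PAP, with overlapping groups (0.46 ± 0.51, edgeR adjusted p = 0.635). Nfe2l2, Mafk and Maff were chosen after their values were seen, and none was called in the fit without a block. Nfe2l2, which encodes NRF2, had 2098, 2135 and 2706 counts in Astro and 0, 132 and 0 in PAP. Mafk had 203, 192 and 319 against 169, 0 and 0, and Maff 35, 29 and 35 against 6, 0 and 0. With 1 library left out, their lowest edgeR adjusted p was 0.0169, 0.0217 and 0.0343, and the highest 0.76, 0.936 and 0.883. The voom adjusted p of Nfe2l2 was 0.033.

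Of 5 genes of ubiquitin and its activation, 1 rose, 1 fell and 3 were not called, beside the same 5.92% and 15.4% of all genes. Rps27a, which encodes ubiquitin fused to a ribosomal protein, had 111, 93.4 and 96.5 CPM in Astro and 1951, 1828 and 1189 CPM in PAP. All PAP values of Rps27a were above Astro, by 4.04 ± 0.29 on the log2 scale (edgeR adjusted p = 0.00211; blocked fit, adjusted p = 0.0151). Rps27a has processed copies in the genome, and the counting could split reads between near-identical copies. The part of B-lineage RNA in the Rps27a and Ddi2 values was not tested either. The polyubiquitin gene Ubb fell, from 474, 379 and 373 CPM in Astro to 189, 217 and 206 CPM in PAP (−1.0 ± 0.25, edgeR adjusted p = 0.0354; blocked fit, adjusted p = 0.209). The calls of Ddi2, Ngly1 and Ubb ended without any 1 Astro library, with adjusted p from 0.0754 to 0.182, and those of Mafg and Rps27a held without any 1 library. Over the 18 alternatives Ubb was called in 8 (adjusted p from 8.35e-06 to 0.341), Ddi2 in 11 (2.13e-06 to 0.207) and Ngly1 in 13 (2.56e-10 to 0.160). Ubb was not called with library size alone, and Ubb and Ddi2 were not called with voom.

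In edgeR's fit of all 6 libraries without a block, none of the genes in 3 further lists was called. These were 5 core assembly factors, 13 other proteasome-bound proteins and 6 tested of 7 interferon-induced antigen processing genes. DESeq2 called Psmg2 (adjusted p = 0.00632), Adrm1 (0.00411) and Akirin2 (0.00549) in these lists. The smallest edgeR adjusted p-values of that fit in these lists were 0.132, 0.178 and 0.248, and their median log2 fold changes were −0.12, −0.11 and −0.58. With 1 library left out, edgeR adjusted p ran from 0.0449 to 0.378 for Psmg2. It ran from 0.0241 to 0.851 for Tap1 and from 0.019 to 0.999 for Tap2. B2m, the light chain of class I molecules and chosen after its values were seen, had 423, 393 and 147 CPM in Astro and 123, 208 and 169 CPM in PAP (−0.95 ± 0.48, edgeR adjusted p = 0.248). Its highest values were in Astro animals 1 and 2, and the groups overlapped.

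**Figure D5:**
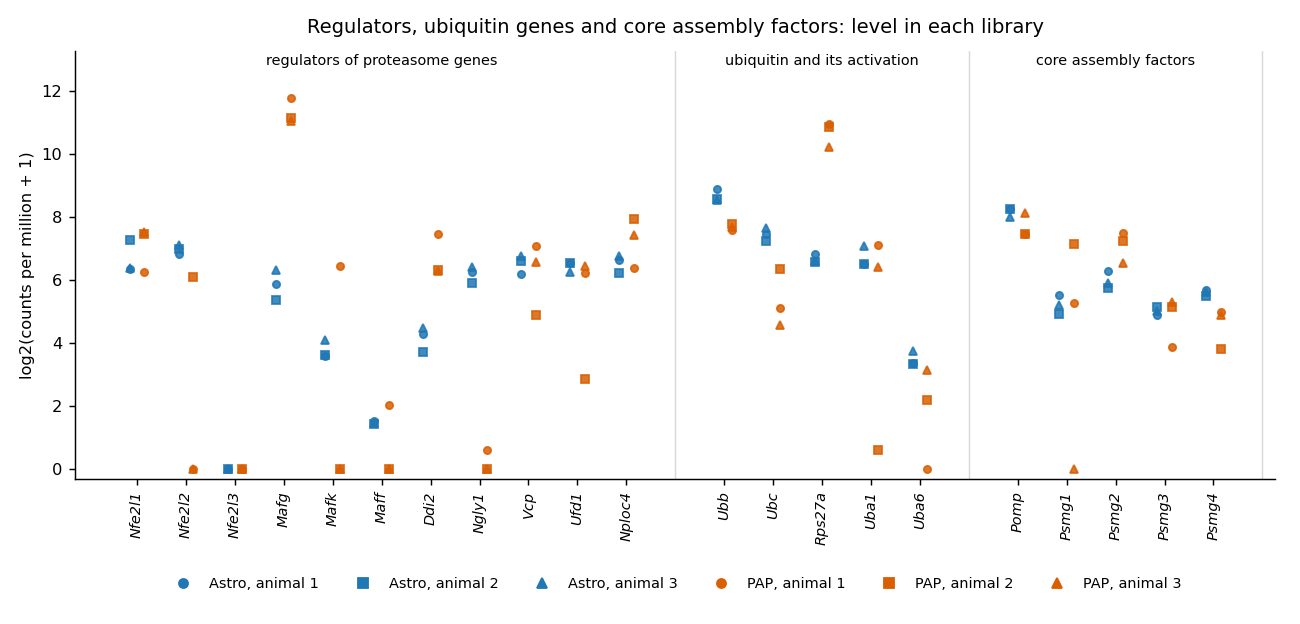
Level of the regulators, ubiquitin genes and core assembly factors in each library, as log2 of CPM plus 1, with colours for compartments and shapes for animals. Mafg and Rps27a stand apart between the compartments, and Ngly1 is at or near 0 in all 3 PAP libraries, with 1, 0 and 0 counts.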

How the data were processed

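Translating ribosome affinity purification RNA of mouse dorsal hippocampus was measured in 48 samples. The deposited values are raw counts per Ensembl gene with no scaling by the authors, as the whole numbers and differing totals show. Per the submitters' processing notes, bcl2fastq 2.18.0.12, Trim Galore 0.4.1, STAR 2.5.2b, SAMtools, HTSeq 0.5.3 and mm10 were used; the annotation release and the strand setting are not given in the sources used here. Per the labels' protocols, lysates were cleared on columns without specific antibody, and RNA was amplified with SMART-Seq v4 before Nextera XT, which can add noise at low input.

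Counts of the 8 technical replicates were added up per animal and compartment. Symbols, positions and exonic lengths came from GENCODE M21 (GRCm38), which held 47224 of the 47643 IDs (99.12%). Genes passed edgeR's filterByExpr with a minimum count of 10; the fit used edgeR 4.0.16 with trimmed mean of M-values scaling and a quasi-likelihood test of PAP against Astro over the 6 libraries, with Benjamini-Hochberg adjustment over 14618 genes. The SE is the log2 fold change divided by the root of F.

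The labels' animal ID field gives both compartments of a number the same animal, which pairs them. Deviations from the group means correlated at 0.00652 within an animal and −0.00324 between animals. The second value largely follows from the first, because the deviations of a gene sum to 0 within each group. A fit with the animal as replicate block is given beside each called proteasome and pathway gene. The biological coefficient of variation was 0.334 over the Astro and 1.58 over the PAP libraries.

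Alternatives were DESeq2 1.42.0, limma 3.58.1 (voom), other scalings and filters, equal depth, subsets of technical replicates, a GC and length correction with the block, and leaving out each library. DESeq2 with the block was added after seeing the data. Gene lists and members were chosen with earlier results of these data known. Named genes were the called members, the catalytic and immune beta and Psme genes, the highest and lowest level per length in Astro, the highest and lowest log2 fold change of each subgroup, Psmc3ip and the called pathway genes. Protein sequences were not used here. Batches are not given in the sources used here. Some genes of the lists are not reported here.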

Additional observations from a re-analysis of the deposited data

How the results depend on the processing

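Called higher and lower proteasome genes numbered 4 and 1. These counts became 0 and 0 with the replicate block and with a GC and length correction plus the replicate block, 2 and 0 with voom with group variance weights and with no filter on low counts, 5 and 0 with a mean of at least 100 counts and at equal depth, 3 and 2 with technical replicates 1 to 4, 4 and 2 with technical replicates 5 to 8, 6 and 7 with DESeq2, and 6 and 5 with DESeq2 and the replicate block. Over all genes, DESeq2 called 11.5% higher and 23.6% lower, and 9.84% and 36.9% with the block. These shares were 0.876% and 0.0342% with edgeR's block and 0.725% and 0.041% with the GC and length correction and the block. They were 4.13% and 19.9% with voom and 2.39% and 6.47% with no filter. A mean of at least 100 counts gave 5.83% and 8.19%, and equal depth 6.44% and 9.12%. Technical replicates 1 to 4 gave 5.93% and 14.9%, and 5 to 8 gave 5.87% and 14.6%. Leaving out 1 library gave 0 to 6 higher and 0 to 2 lower, beside 0.881% to 7.57% and 0.00773% to 20.2% of all genes. The median log2 fold change of 0.003 was −0.161 with the replicate block (all genes −0.527 and −1.632), −0.157 with voom, 0.146 with library size alone, −0.209 with no filter, 0.207 with a mean of at least 100 counts, 0.18 at equal depth, −0.215 with the GC and length correction and the block, and −0.24 to 0.101 without 1 library. The median of all genes was −1.616 with voom, −0.375 with library size alone and −1.042 with no filter. It was −0.315 with a mean of at least 100 counts, −0.231 at equal depth and −1.783 with the GC and length correction and the block. Without 1 library it was −0.951 to −0.371. Directions turned under some alternative for 13 of the 43 tested genes, of which 7 were not chosen by the rule for named genes (Psma1, Psma3, Psma7, Psmb3, Psmc4, Psmd4 and Psmd11). The 6 chosen by it were called in no setting: Psmb5 to 0.08, 0.13 and 0.26 (library size alone, mean of at least 100 counts, equal depth), Psmb6 to 0.04 and 0.04 (mean of at least 100 counts, equal depth), and Psmb10 to −0.02 and −0.16 (voom, GC and length correction with the block). Without 1 library the range was −0.45 to 0.11 for Psmb5, −0.57 to 0.62 for Psmb9, −0.25 to 0.75 for Psmb10, −0.05 to 0.95 for Psmd10 and −0.02 to 0.59 for Psme3. The cause was not tested. Leaving out an Astro library ended the calls of all 5 genes, in fits where the calls over all genes dropped to 115 to 140. PAP depth limits genes at a few counts; 3 counts are 1.006 to 1.639 CPM there, before scaling, and 0.148 to 0.160 in Astro.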
